A study of Homo sapiens with 18 samples.

Results

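The transcriptional coactivators YAP1 and WWTR1 (TAZ), their DNA-binding partner TEAD1, the kinases LATS1 and LATS2, the target genes CCN1, CCN2, ANKRD1 and AMOTL2, and the LIM protein AJUBA were followed as one set of 10 genes of the Hippo pathway and of its YAP output. The set was taken by gene symbol, because the glucocorticoid receptor (GR) is reported to activate YAP in breast cancer cells, and the rule itself uses no measured value. All 10 symbols are among the 60642 of the count tables, and all 10 were among the 15298 genes kept for testing. RNA came from MDA-MB-231, an established human cell line of triple-negative breast cancer (TNBC), transfected with siNS (a non-specific siRNA pool), siHP1γ (a pool against CBX3, the gene of HP1γ) or siPRMT5 (a pool against the arginine methyltransferase PRMT5). Each of these cells received vehicle (ethanol, Eth) or 100 nM dexamethasone (Dex), a synthetic glucocorticoid (GC) that activates GR, for 8 h. Each of the 6 conditions was sequenced in 3 biological replicates, 18 libraries in all. The depletions are transient and lower an mRNA without removing it, and all cells are of 1 line.

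In the Hippo pathway, the kinases LATS1 and LATS2 phosphorylate YAP and TAZ, which holds these proteins in the cytoplasm and marks them for degradation. When the kinases are inactive, YAP and TAZ enter the nucleus, bind TEAD proteins and switch on genes of the matrix, the cytoskeleton and growth, among them CCN1 (CYR61), CCN2 (CTGF) and ANKRD1. Because this control acts on the proteins, the mRNA of YAP1 or LATS1 does not report how active they are, whereas the mRNA of a target is an output of the pathway and of any other factor that acts on the same gene. In breast cancer cells, GCs are reported to raise YAP activity through fibronectin, focal adhesions and Src kinases.

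TEAD proteins recognise the letters GGAATG. The hexamer was searched, as CATTCC on the opposite strand, in both directions within the 250 bases before the RefSeq start of each gene, in the RefSeq promoter table (GRCh38.p14), which has an entry for 8 of the 10 members. It was present before 5 of these 8 members, and 11.9% of the 35116 promoters of the table hold at least 1 copy in a window of the same length. The 3 sequences below belong to the target whose Dex response differed after PRMT5 depletion (CCN2), to the target with the largest Dex response of the set (ANKRD1) and to the gene of the coactivator itself (YAP1). Each is written 5′ to 3′ on the strand of the gene, with the hexamer in capitals.
CCN2 (chr6:131951373-131951622, minus strand): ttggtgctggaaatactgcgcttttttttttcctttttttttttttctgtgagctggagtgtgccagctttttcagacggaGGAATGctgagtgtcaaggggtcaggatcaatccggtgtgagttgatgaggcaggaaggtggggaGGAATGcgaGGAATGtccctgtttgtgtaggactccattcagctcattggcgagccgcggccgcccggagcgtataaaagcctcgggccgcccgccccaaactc
ANKRD1 (chr10:90921088-90921337, minus strand): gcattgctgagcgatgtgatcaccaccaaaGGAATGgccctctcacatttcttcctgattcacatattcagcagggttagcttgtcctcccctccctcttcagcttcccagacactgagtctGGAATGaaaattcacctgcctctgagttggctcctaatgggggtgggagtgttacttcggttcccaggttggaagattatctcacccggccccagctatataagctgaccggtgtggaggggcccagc
YAP1 (chr11:102110197-102110446, plus strand): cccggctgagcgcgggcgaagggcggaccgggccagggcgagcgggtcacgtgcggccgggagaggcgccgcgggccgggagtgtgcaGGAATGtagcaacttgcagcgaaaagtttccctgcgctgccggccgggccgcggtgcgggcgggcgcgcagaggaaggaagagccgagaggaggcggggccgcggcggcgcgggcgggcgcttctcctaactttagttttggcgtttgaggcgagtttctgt

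CCN2 had 3 copies, at 169 to 164, 104 to 99 and 95 to 90 bases before the start. ANKRD1 had 2, at 220 to 215 and 128 to 123 bases, and YAP1 had 1, at 162 to 157 bases. AMOTL2 and AJUBA had 1 copy each, and WWTR1, LATS1 and LATS2 had none in this window. The windows of WWTR1, AMOTL2 and AJUBA lie inside the annotated loci of these genes. That of AJUBA, for example, is chr14:22976843-22977092 within a gene that spans chr14:22971177-22982551 (minus strand). For these 3 genes the window precedes a start within the locus and not its outermost start. The AP-1 heptamer TGAGTCA (4.2% of promoters), the hexamer AGAACA of GR sites (12.4%) and the CArG box of SRF (1.16%), each searched on both strands, were in none of the 8 windows. A match is a run of letters and not a measured binding site, and enhancers lie outside these 250 bases.

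**Figure D1:**
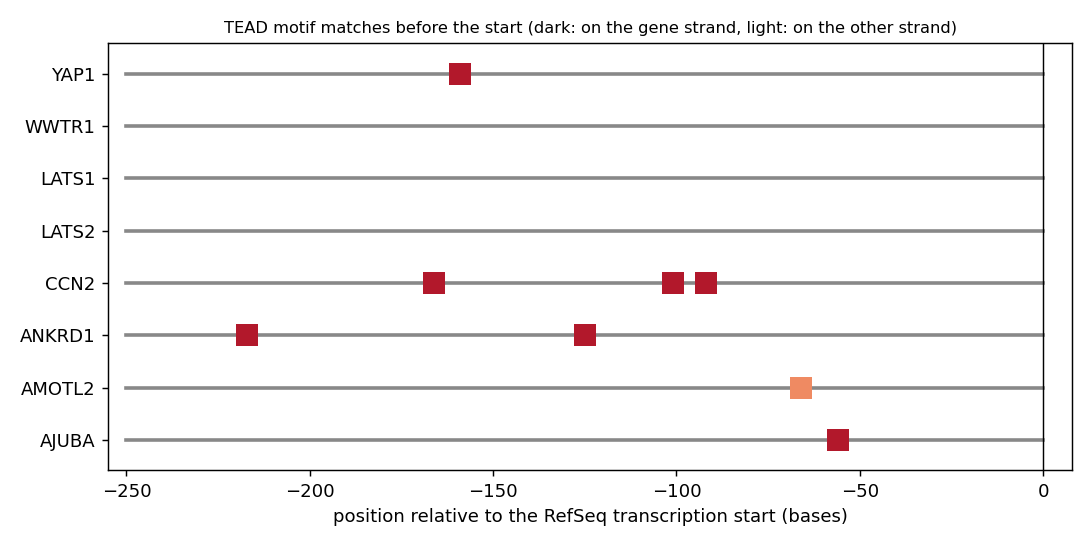
Copies of the TEAD hexamer before the start of the 8 members with an entry in the RefSeq promoter table. The x axis is the position relative to the annotated start in bases, each grey line is the 250 bases searched, dark blocks are copies on the gene strand and the light block a copy on the other strand. CCN2 holds 3 copies and ANKRD1 2, and the lines of WWTR1, LATS1 and LATS2 are empty.

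In GENCODE 44 on hg38, CCN2 spans chr6:131948176-131951372 (minus strand), with 5 exons. Its exonic sequence overlaps the locus of the antisense gene LINC01013, which had 0 to 2 counts per library. ANKRD1 spans chr10:90912096-90921087 (minus strand), and CCN1 spans chr1:85580761-85584589 (plus strand). Neither overlaps another annotated gene. YAP1 spans chr11:102110447-102233424 (plus strand). Its pseudogene YAP1P1 had 45 to 110 counts per library, against 1595 to 4252 for YAP1, and reads that both could have given cannot be told apart. WWTR1 spans chr3:149517235-149736714 (minus strand), and its antisense gene WWTR1-AS1 had 0 to 6 counts per library.

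Between 8682992 and 12472381 reads were counted per library, and the 10 members together took 0.217 to 0.399% of them. Values are CPM, with library totals adjusted by TMM factors, and errors are SD over the 3 replicates. Whether the kit reads whole transcripts or their 3′ ends is not given in the sources used here, so levels were compared between conditions for 1 gene and not between genes. Replicates of a condition differed by up to 12.4 times the sampling noise (chi-square per degree of freedom), the highest value being that of siHP1γ Dex replicates 1 and 3. PRMT5 mRNA in siPRMT5 cells was 2.97% of siNS cells with Eth and 4.39% with Dex, and CBX3 mRNA in siHP1γ cells was 3.87% and 5.96%. The GR target TSC22D3 had log2 fold changes with Dex of 3.64 in siNS, 2.63 in siHP1γ and 3.24 in siPRMT5 cells. Over the 4 GR targets TSC22D3, FKBP5, PER1 and KLF9 the median was 2.68, 1.96 and 3.06, so siNS and siPRMT5 cells changed order. FKBP5 was measured at 111 to 115 CPM in siNS Eth and 501 to 505 in siNS Dex. In siPRMT5 cells it was at 84.0 to 97.4 CPM with Eth and 681 to 776 with Dex. Of the markers of this line, VIM was measured at 5444 to 9592, CD44 at 506 to 857 and EGFR at 114 to 264 CPM, whereas ESR1, PGR and CDH1, which it lacks, had 0 to 2 counts. EPCAM, also listed as near 0, was measured at 8.57 to 14.0 CPM.

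The first comparison asked which members responded to Dex in siNS cells. ANKRD1, which encodes an ankyrin repeat protein of the nucleus and the cytoskeleton and is a standard readout of YAP, rose about 3-fold and was the only member past the threshold of the Dex comparisons (adjusted p under 0.01 with at least a 1.5-fold difference), which 2.71% of all genes passed, 1.65% higher and 1.06% lower. Differences of the other members were small. Without the fold change limit, at an adjusted p under 0.05, CCN2, AMOTL2 and YAP1 were higher with Dex and WWTR1 was lower, so that 5 of 10 members passed, against 9.16% of all genes (4.88% higher and 4.28% lower). Of these, CCN2 had an adjusted p above 0.05 without siNS Eth replicate 3 (0.127) and without siNS Dex replicate 1 (0.0501) or 3 (0.107). AMOTL2 did so without any 1 of the siNS Eth libraries and without siNS Dex replicate 1 or 2 (0.0534 to 0.12), whereas YAP1, WWTR1 and ANKRD1 stayed below it in each fit that left out 1 library. The median log2 fold change was 0.15 over the 10 members and 0.00 over all genes. All adjusted p-values are from edgeR's quasi-likelihood test on the 18 libraries, with Benjamini-Hochberg adjustment over 15298 genes, and reflect only the spread between these replicates.

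ANKRD1 was measured at 253, 257 and 273 CPM in the 3 siNS Eth libraries and at 770.0, 848 and 744 CPM in the 3 siNS Dex libraries. Every Dex library lay far above every Eth library. The mean went from 261 ± 10.6 to 787 ± 54.3 CPM (SD, n = 3), and the log2 fold change was 1.59 ± 0.0648 (SE, adjusted p = 6.22e-16). CCN2, a secreted matricellular protein, was measured at 827, 843 and 769.9 CPM with Eth and at 948, 923 and 997 CPM with Dex. The groups did not overlap, but the difference was small, with a log2 fold change of 0.23 ± 0.0627 (SE, adjusted p = 0.0165). CCN1, its close relative and also a secreted YAP target, was measured at 1035, 1193 and 1063 CPM with Eth and at 1119, 1074 and 1157 CPM with Dex. These groups overlapped, and the log2 fold change of 0.02 (adjusted p = 0.869) had a 95% interval of -0.11 to 0.16. AMOTL2, an angiomotin-like scaffold that binds YAP and is itself a YAP target, was measured at 101, 103 and 104 CPM with Eth and at 122, 127 and 117 CPM with Dex, without overlap, and its log2 fold change was 0.25 (adjusted p = 0.0259).

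The mRNAs of both coactivators differed with Dex in opposite directions. YAP1 was measured at 228, 205 and 219 CPM with Eth and at 279, 274 and 268 CPM with Dex, so every Dex library was higher, and the log2 fold change was 0.33 ± 0.0711 (SE, adjusted p = 0.00229). WWTR1 was measured at 333, 289.9 and 297 CPM with Eth and at 247, 219 and 263 CPM with Dex, so every Dex library was lower, and the log2 fold change was -0.33 ± 0.0770 (SE, adjusted p = 0.00483). Both fold changes are below the limit of 1.5. TEAD1, which carries both coactivators to DNA, was measured at 273, 246 and 233 CPM with Eth and at 279, 279.6 and 278 CPM with Dex. The groups did not overlap, but the difference of 0.15 (adjusted p = 0.449) did not pass the test. The kinase LATS1 was measured at 93.6, 77.8 and 89.2 CPM with Eth and at 89.9, 83.6 and 89.1 CPM with Dex, and the groups overlapped. LATS2, which shares the kinase activity and is itself a YAP target, was measured at 84.6, 81.0 and 81.4 CPM with Eth and at 90.1, 90.3 and 94.0 CPM with Dex. AJUBA, which binds and restrains LATS kinases, was measured at 79.4, 79.3 and 76.5 CPM with Eth and at 90.5, 89.6 and 78.7 CPM with Dex. LATS1, LATS2 and AJUBA did not pass the test, with log2 fold changes of 0.01, 0.15 and 0.14. The libraries of the 2 groups did not overlap for 7 of 10 members, as for 27.9% of all genes, and for such members the exact two-sided permutation test gave p = 0.1, the smallest that 3 against 3 libraries allow.

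**Figure D2:**
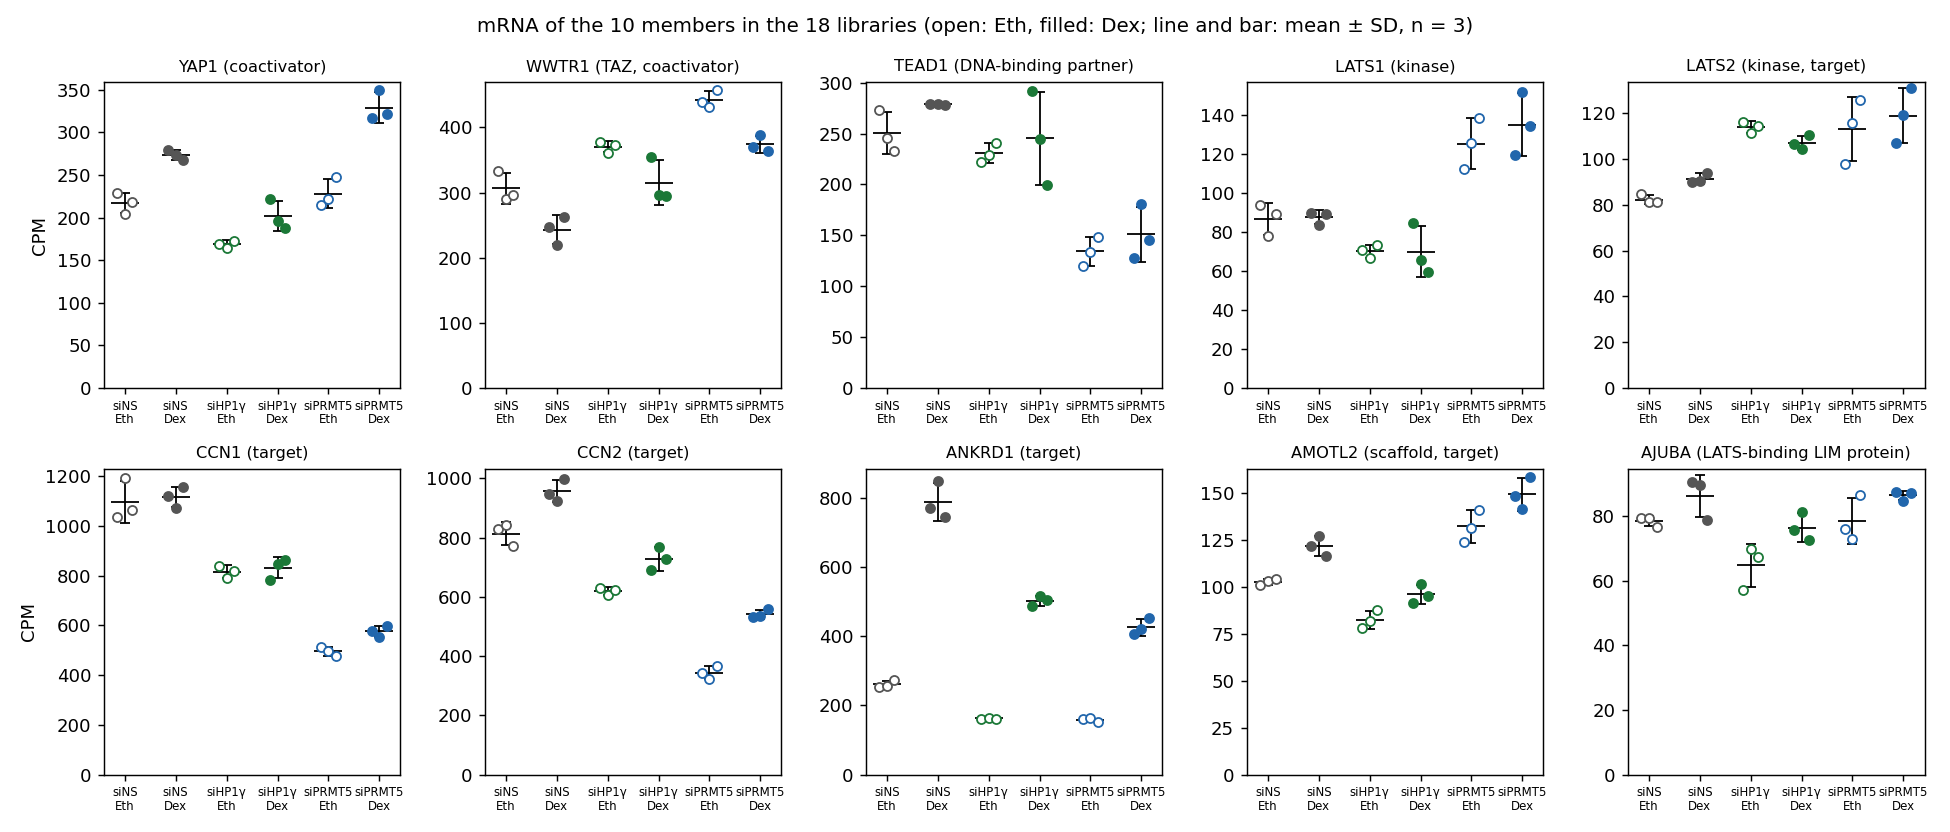
Level of each of the 10 members in the 18 libraries, 1 panel per gene. The y axis is CPM on a linear scale from 0 that differs between panels, open points are Eth and filled points Dex libraries (grey siNS, green siHP1γ, blue siPRMT5), and the line and bar are the mean ± SD of 3 replicates. ANKRD1 is higher with Dex in all 3 kinds of cells, CCN1 and CCN2 are lowest in siPRMT5 Eth, and WWTR1 is higher in siPRMT5 than in siNS cells under both treatments.

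The Dex response was then compared in cells depleted of HP1γ or PRMT5. ANKRD1 rose in both and CCN2 rose past the threshold in siPRMT5 cells. The response of CCN2 there was larger than in siNS cells by the test of the difference itself. In siHP1γ cells 1 of 10 members passed, where 1.67% of all genes did (1.01% higher and 0.66% lower). In siPRMT5 cells 2 of 10 passed, where 5.44% of all genes did (2.69% higher and 2.75% lower). At an adjusted p under 0.05 without the fold change limit, 3 members were higher in siHP1γ cells, against 5.55% of all genes (2.44% higher and 3.1% lower). In siPRMT5 cells 4 were higher and 1 lower, against 16% of all genes (7.52% higher and 8.48% lower). Several of these calls were lost when 1 library was left out, although the log2 fold changes kept their sign. In siHP1γ cells they stayed at 0.19 to 0.31 for YAP1 and at 0.20 to 0.28 for CCN2. In siHP1γ cells, YAP1 was above 0.05 without siHP1γ Dex replicate 1 or any 1 siHP1γ Eth library (0.0566 to 0.163), and CCN2 without siHP1γ Dex replicate 2 or any 1 siHP1γ Eth library (0.052 to 0.114). Both were also above it when the 6 siHP1γ libraries were fitted alone, at 0.0775 and 0.0719. In siPRMT5 cells, WWTR1 was above it without siPRMT5 Eth replicate 1 or 3 and without siPRMT5 Dex replicate 1 or 3 (0.0607 to 0.106), and CCN1 without siPRMT5 Eth replicate 2 or 3 and without siPRMT5 Dex replicate 3 (0.0513 to 0.0791) and with the 6 siPRMT5 libraries alone (0.0553). AMOTL2 passed without siPRMT5 Eth replicate 3 (0.0481). The Dex and Eth libraries did not overlap for 7 members in siHP1γ cells (21.8% of all genes) and for 6 in siPRMT5 cells (28.7%).

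In siHP1γ cells, ANKRD1 was measured at 162, 165 and 161 CPM with Eth and at 486, 515 and 505 CPM with Dex. The fold was close to that of siNS cells, with a log2 fold change of 1.63 ± 0.0655 (SE, adjusted p = 1.3e-15). Its response differed from that of siNS cells by 0.03 on the log2 scale, with a 95% interval of -0.15 to 0.22 and an adjusted p of 0.884 for the interaction. CCN2 was measured at 629.7, 605 and 622 CPM with Eth and at 689, 768 and 727 CPM with Dex, a log2 fold change of 0.23 (adjusted p = 0.024) without overlap of the groups. YAP1 was measured at 169, 165 and 173 CPM with Eth and at 222, 197 and 188 CPM with Dex, without overlap, and its log2 fold change was 0.26 (adjusted p = 0.0293). WWTR1 was measured at 377, 361 and 373 CPM with Eth and at 355, 296 and 295 CPM with Dex, and its log2 fold change of -0.23 (adjusted p = 0.0783) did not pass. Without siHP1γ Dex replicate 1, the highest of its group, it was -0.32 (adjusted p = 0.00779). No member passed the test of the difference between the responses of siHP1γ and siNS cells (0 of 10 at an adjusted p under 0.05 by edgeR's quasi-likelihood test and 0 by DESeq2). By edgeR 0.399% of all genes passed (0.118% higher and 0.281% lower). At an unadjusted p under 0.05, 1 member passed, LATS2, whose difference of -0.24 was the largest of the set, with a 95% interval of -0.48 to -0.01 and an adjusted p of 0.278.

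In siPRMT5 cells, ANKRD1 was measured at 161, 162 and 151 CPM with Eth and at 405, 419.8 and 451 CPM with Dex, a log2 fold change of 1.43 ± 0.0656 (SE, adjusted p = 5.17e-15). Its response differed from that of siNS cells by -0.17 (95% interval -0.35 to 0.02, adjusted p = 0.326 for the interaction). CCN2 was measured at 343, 322 and 367 CPM with Eth and at 531, 534 and 559 CPM with Dex. Both groups lay below all siNS libraries, and Dex raised CCN2 by a log2 fold change of 0.66 ± 0.0637 (SE, adjusted p = 1.32e-08). The interaction for CCN2 was 0.42 ± 0.0893 (SE, adjusted p = 0.00685), the only one of the 10 members past the test, where 3.8% of all genes passed (1.58% higher and 2.23% lower). Over the fits that each left out 1 of the 18 libraries, it lay between 0.38 and 0.48 and kept its call. CCN1 was measured at 514, 498 and 477 CPM with Eth and at 578, 555 and 598 CPM with Dex, without overlap. Its log2 fold change of 0.22 (adjusted p = 0.0199) was below the fold change limit, and its interaction of 0.19 did not pass (adjusted p = 0.245).

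The coactivator genes kept their directions in siPRMT5 cells. YAP1 was measured at 215, 222 and 248 CPM with Eth and at 317, 349.5 and 321 CPM with Dex. These Dex libraries hold the highest YAP1 levels of the data set, and the log2 fold change was 0.53 ± 0.0710 (SE, adjusted p = 3.17e-06), a fold of 1.44 that misses the limit of 1.5. Without siPRMT5 Eth replicate 3, the highest of its group, the value was 0.60 and passed. The interaction of YAP1 with PRMT5 depletion was 0.20 (adjusted p = 0.294). WWTR1 was measured at 439, 431 and 457 CPM with Eth and at 369.8, 388 and 364 CPM with Dex, every Dex library being lower, and its log2 fold change was -0.24 (adjusted p = 0.028). AMOTL2 had log2 fold changes of 0.22 (adjusted p = 0.0771) in siHP1γ and 0.18 (adjusted p = 0.097) in siPRMT5 cells. TEAD1, LATS1, LATS2 and AJUBA did not pass in either kind of depleted cells, with log2 fold changes between -0.09 and 0.24.

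**Figure D3:**
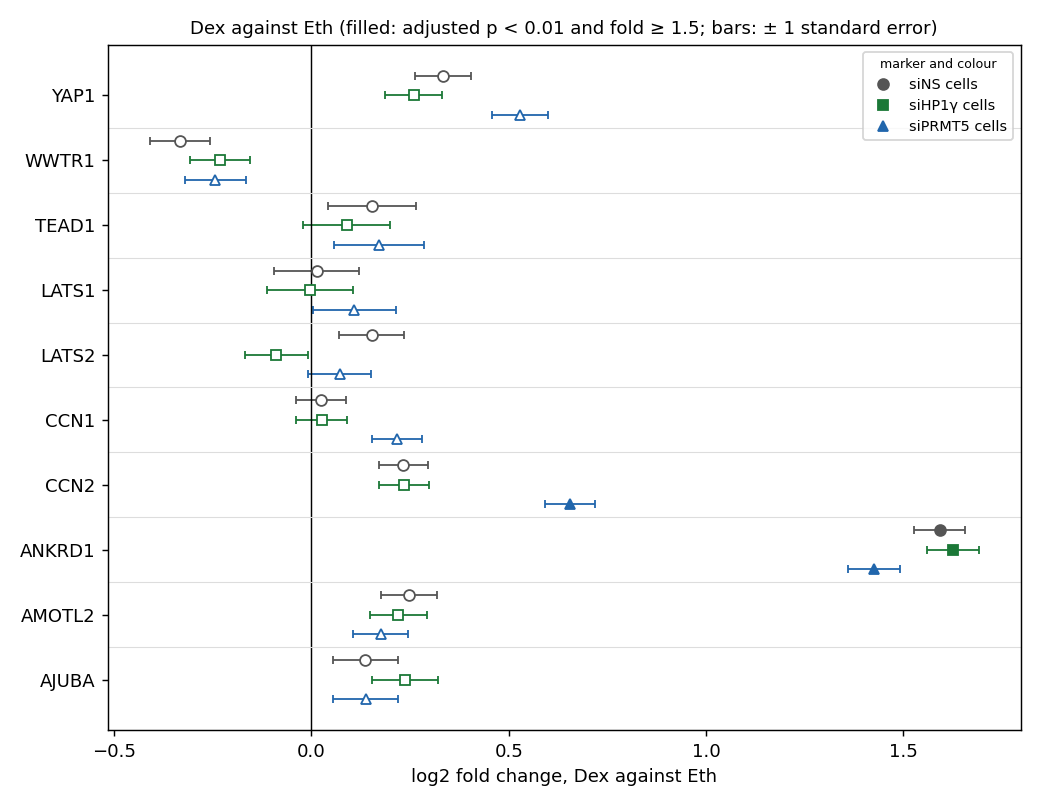
Dex response of the 10 members in siNS (grey circles), siHP1γ (green squares) and siPRMT5 cells (blue triangles). The x axis is the log2 fold change of Dex against Eth with bars of 1 standard error, and filled symbols passed an adjusted p under 0.01 with a fold change of at least 1.5. ANKRD1 lies at 1.43 to 1.63 in all 3 kinds of cells, CCN2 is filled in siPRMT5 cells at 0.66, and WWTR1 lies left of 0 in all 3.

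The next comparisons asked what HP1γ depletion did to the members, with and without Dex. The targets CCN1, CCN2, ANKRD1 and AMOTL2 and the coactivator gene YAP1 fell under both treatments, to between 62.2% and 80.2% of siNS cells, and WWTR1 and LATS2 rose. With Eth, 9 of 10 members passed an adjusted p under 0.05, 2 higher and 7 lower, where 31.8% of all genes passed (16.5% higher and 15.2% lower). With Dex, 8 of 10 passed, 2 higher and 6 lower, where 24% of all genes passed (11.7% higher and 12.3% lower). The median log2 fold change of the members was -0.31 with Eth and -0.33 with Dex, against 0.01 and 0.00 over all genes. The libraries of siHP1γ and siNS cells did not overlap for 9 members with Eth (45.5% of all genes) and for 7 with Dex (36.9%).

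ANKRD1 had the largest change of the set after HP1γ depletion. Its siHP1γ Eth libraries, at 162, 165 and 161 CPM, lay below all siNS Eth libraries, whose lowest was 253 CPM. The log2 fold change was -0.68 ± 0.0651 (SE, adjusted p = 1.49e-08) with Eth and -0.65 ± 0.0630 (SE, adjusted p = 2.51e-08) with Dex. CCN1 was measured at 840.2, 789.6 and 819.9 CPM in siHP1γ Eth and at 784, 845 and 865 CPM in siHP1γ Dex. Both groups were below every siNS library, with log2 fold changes of -0.43 ± 0.0638 (SE, adjusted p = 1.34e-05) and -0.43 ± 0.0638 (SE, adjusted p = 1.79e-05). CCN2 fell to 76.1% of siNS cells with Eth and to 76.2% with Dex, with log2 fold changes of -0.39 (adjusted p = 3.03e-05) and -0.39 (adjusted p = 4.04e-05). AMOTL2 was measured at 78.0, 81.8 and 87.5 CPM in siHP1γ Eth and at 91.8, 102 and 95.1 CPM in siHP1γ Dex, and its log2 fold changes were -0.32 (adjusted p = 0.00145) and -0.34 (adjusted p = 0.000754).

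Among the regulators, YAP1 fell, with log2 fold changes of -0.36 ± 0.0718 (SE, adjusted p = 0.000361) with Eth and -0.44 ± 0.0710 (SE, adjusted p = 5.1e-05) with Dex. WWTR1 moved the other way and rose by 0.27 ± 0.0765 (SE, adjusted p = 0.00784) and 0.37 ± 0.0768 (SE, adjusted p = 0.000726). For both genes, no siHP1γ library overlapped with the siNS libraries under the same treatment. LATS1 was measured at 70.8, 66.6 and 73.1 CPM in siHP1γ Eth and at 84.5, 65.5 and 59.5 CPM in siHP1γ Dex, and its log2 fold changes were -0.31 (adjusted p = 0.0336) and -0.32 (adjusted p = 0.0307). The LATS1 libraries overlapped with those of siNS cells with Dex but not with Eth. LATS2 was measured at 116, 111 and 114 CPM in siHP1γ Eth and at 107, 104 and 111 CPM in siHP1γ Dex, all of them above every siNS library under the same treatment, with log2 fold changes of 0.47 (adjusted p = 8.09e-05) and 0.23 (adjusted p = 0.0405). TEAD1 was measured at 222, 229 and 241 CPM in siHP1γ Eth and at 292, 244 and 199.7 CPM in siHP1γ Dex. Its log2 fold changes of -0.12 (adjusted p = 0.444) and -0.18 (adjusted p = 0.243) did not pass. AJUBA was measured at 57.2, 69.9 and 67.2 CPM in siHP1γ Eth and at 75.6, 81.2 and 72.5 CPM in siHP1γ Dex, and passed with Eth at -0.27 (adjusted p = 0.0137) but not with Dex at -0.17 (adjusted p = 0.126).

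Replicate 1 of siHP1γ Dex held the highest TEAD1, LATS1, WWTR1 and YAP1 levels of its condition. Without it, 8 members still passed with Dex, but TEAD1 entered at -0.33 (adjusted p = 0.0269) and LATS2 left at 0.23 (adjusted p = 0.0603). LATS2 with Dex also lost its call without siNS Eth replicate 3, without any 1 of the 3 siNS Dex libraries, without siHP1γ Dex replicate 2 or 3 and without siPRMT5 Eth replicate 2, with adjusted p-values of 0.059 to 0.124. LATS1 with Dex lost its call without siNS Dex replicate 1 or 3 and without siHP1γ Dex replicate 2 or 3 (0.0858 to 0.15). With Eth, LATS1 lost it without siNS Eth replicate 1 or 3 and without siHP1γ Eth replicate 1 or 2 (0.0645 to 0.12), AJUBA without siHP1γ Eth replicate 1 (0.0945), and WWTR1 without siNS Eth replicate 3 (0.0586). The falls of ANKRD1, CCN1, CCN2, YAP1 and AMOTL2 passed in each of the 18 fits that left out 1 library.

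The same question was asked of PRMT5, the other coregulator. CCN1, CCN2 and ANKRD1 fell to between 42.3% and 60.6% of siNS cells, TEAD1 to 53.6% and 54.2%, and WWTR1, LATS1, LATS2 and AMOTL2 rose. With Eth, 8 of 10 members passed, 4 higher and 4 lower, where 42.1% of all genes passed (20.6% higher and 21.6% lower). With Dex, 9 of 10 passed, 5 higher and 4 lower, where 42.4% of all genes passed (20.6% higher and 21.9% lower). The median log2 fold change of the members was 0.04 with Eth and 0.13 with Dex, against 0.00 over all genes in both. The libraries of siPRMT5 and siNS cells did not overlap for 8 members with Eth (49.1% of all genes) and for 9 with Dex (51.5%). Each siNS library serves both depletions and the Dex comparison in siNS cells, so these comparisons are not independent of each other.

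CCN2 had the largest change of the set after PRMT5 depletion with Eth, and CCN1 with Dex. With Eth, the highest siPRMT5 library of CCN2, at 367 CPM, was below the lowest siNS library, at 769.9 CPM. The mean was 344 ± 22.5 CPM against 813 ± 38.5 CPM (SD, n = 3), and the log2 fold change was -1.24 ± 0.0642 (SE, adjusted p = 5.24e-14). With Dex, the mean was 542 ± 15.2 CPM against 956 ± 37.7 CPM, a log2 fold change of -0.82 ± 0.0632 (SE, adjusted p = 9.4e-11). CCN1 fell to 45.2% of siNS cells with Eth and to 51.7% with Dex, with log2 fold changes of -1.14 ± 0.0648 (SE, adjusted p = 3.2e-13) and -0.95 ± 0.0644 (SE, adjusted p = 7.76e-12). ANKRD1 fell to 60.6% with Eth and to 54.0% with Dex, with log2 fold changes of -0.72 ± 0.0654 (SE, adjusted p = 1.83e-09) and -0.89 ± 0.0633 (SE, adjusted p = 2.2e-11). The fourth target moved the other way. AMOTL2 was measured at 124, 132 and 141 CPM in siPRMT5 Eth and at 148, 141 and 159 CPM in siPRMT5 Dex, all above every siNS library under the same treatment, with log2 fold changes of 0.36 (adjusted p = 0.000178) and 0.29 (adjusted p = 0.00145).

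TEAD1 was measured at 120.2, 134 and 149 CPM in siPRMT5 Eth and at 128, 181 and 145 CPM in siPRMT5 Dex. Every value was below every siNS and siHP1γ library, and the log2 fold changes against siNS were -0.90 ± 0.114 (SE, adjusted p = 4.93e-07) and -0.88 ± 0.112 (SE, adjusted p = 5.97e-07). WWTR1 rose by 0.53 ± 0.0766 (SE, adjusted p = 3.63e-06) with Eth and 0.62 ± 0.0769 (SE, adjusted p = 3.77e-07) with Dex. YAP1 did not pass with Eth, at 0.07 (adjusted p = 0.456) with overlapping groups and a 95% interval of -0.08 to 0.22, and rose with Dex by 0.27 (adjusted p = 0.00336). LATS1 was measured at 112, 125 and 139 CPM in siPRMT5 Eth and at 119, 152 and 134 CPM in siPRMT5 Dex, and rose by 0.53 (adjusted p = 0.000253) and 0.63 (adjusted p = 3.12e-05). LATS2 was measured at 98.0, 116 and 126 CPM with Eth and at 107, 119 and 131 CPM with Dex, and rose by 0.46 (adjusted p = 6.12e-05) and 0.38 (adjusted p = 0.000463). AJUBA was measured at 76.0, 72.9 and 86.5 CPM with Eth and at 87.5, 84.7 and 87.0 CPM with Dex and did not pass under either treatment, with log2 fold changes of 0.00 and 0.00 and 95% intervals of -0.17 to 0.17 and -0.17 to 0.17.

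**Figure D4:**
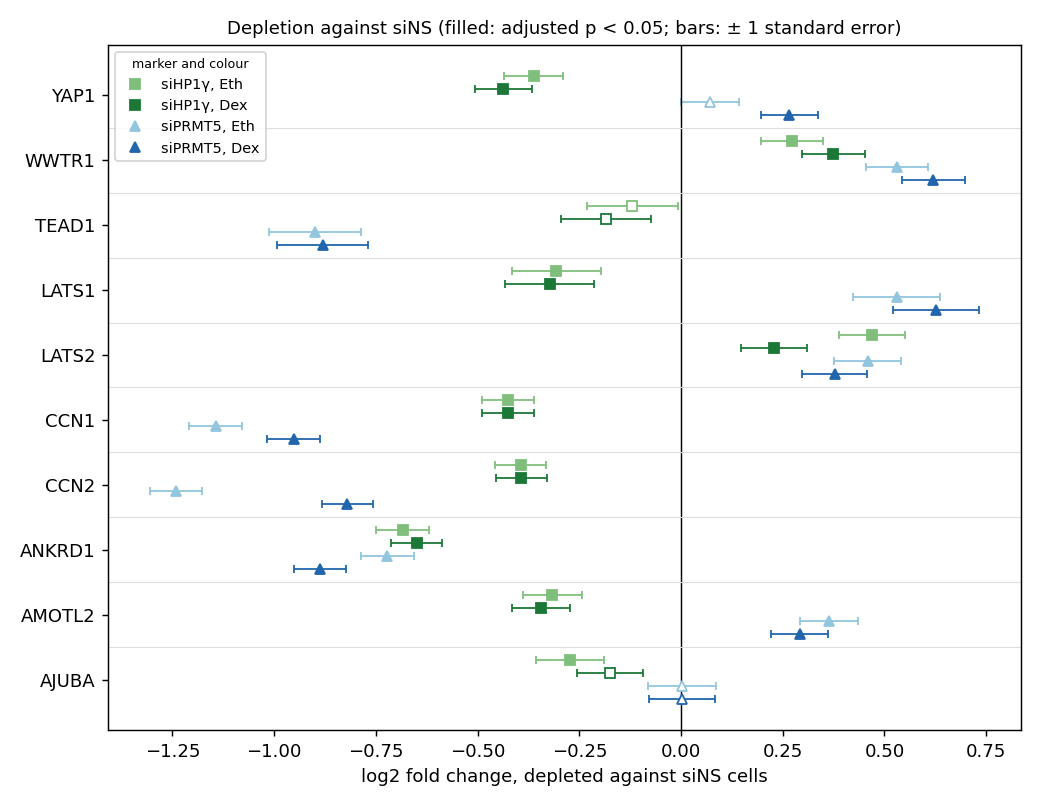
Change of the 10 members after depletion of HP1γ (green squares) or PRMT5 (blue triangles), each against siNS cells with the same treatment (light Eth, dark Dex). The x axis is the log2 fold change with bars of 1 standard error, and filled symbols passed an adjusted p under 0.05. ANKRD1, CCN1 and CCN2 lie left of 0 in all 4 comparisons, WWTR1 and LATS2 lie right of 0 in all 4, and YAP1, LATS1 and AMOTL2 lie left after HP1γ and right after PRMT5 depletion.

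Markers of other cell types moved with the depletions and, in part, with Dex. PECAM1, CD68 and COL1A1 were counted in every library, and the summed level of the 6 listed markers was 7.13 to 7.95 CPM in siNS Eth, 9.81 to 12.4 in siNS Dex, 11.7 to 13.0 in siHP1γ Eth, 11.3 to 13.7 in siHP1γ Dex, 17.9 to 19.8 in siPRMT5 Eth and 18.5 to 22.7 in siPRMT5 Dex. PTPRC, a marker of leukocytes, and CD3E, a marker of T cells, had at most 2 counts per library. CDH5, which defines endothelium, had at most 7 counts per library. PECAM1 and COL1A1 were low, at 10 to 81 and 26 to 151 counts per library, and both had their lowest mean in siNS Eth. PECAM1 rose with Dex in siNS cells by a log2 fold change of 1.67 and after PRMT5 depletion by 1.31 with Eth and 0.71 with Dex. COL1A1 rose by log2 fold changes of 2.10 with Eth and 1.20 with Dex after PRMT5 depletion, and EGFR fell, with log2 fold changes of -0.74 and -0.93. After HP1γ depletion, PECAM1 and COL1A1 rose with Eth, by 1.03 and 1.20, and did not pass with Dex. VIM fell under both treatments, with log2 fold changes of -0.29 and -0.28, CD44 fell with Eth, at -0.20, and EGFR fell with Dex, at -0.38. EPCAM was higher than in siNS cells with Dex, at 0.47. Of VIM, CD44 and EGFR, 2 were lower with Eth after PRMT5 depletion (21.6% of all genes). With Dex, 2 of these 3 were lower at an adjusted p under 0.05 in each kind of cells. Of all genes, 4.28% were lower in siNS, 3.1% in siHP1γ and 8.48% in siPRMT5 cells. The median log2 fold changes of the 3 with Dex were -0.25, -0.23 and -0.29, and none passed the Dex threshold. In bulk RNA, fewer cells of a kind and less RNA per cell cannot be told apart, and the part of these markers in the results was not tested.

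Because both depletions were measured against the same siNS libraries, they were also set against each other. This comparison was chosen after the data were seen. With Eth, 8 of 10 members differed between siPRMT5 and siHP1γ cells, 5 higher and 3 lower in siPRMT5 cells, where 48.4% of all genes differed (23.4% higher and 25% lower). With Dex, 8 differed, 4 higher and 4 lower, where 49.9% of all genes did (24.4% higher and 25.5% lower). The libraries did not overlap for 8 members with Eth (56.4% of all genes) and for 9 with Dex (52.1%). CCN1 and CCN2 were lower in siPRMT5 than in siHP1γ cells, with log2 differences of -0.72 (adjusted p = 1.13e-09) and -0.85 (adjusted p = 4.59e-11) with Eth, and of -0.53 and -0.43 with Dex. ANKRD1 did not pass with Eth, at -0.04 (95% interval -0.17 to 0.10, adjusted p = 0.661), and was lower with Dex, at -0.24 (adjusted p = 0.00279). TEAD1 was lower under both treatments, at -0.78 with Eth and -0.70 with Dex. YAP1, LATS1 and AMOTL2 were higher in siPRMT5 cells, by 0.43, 0.84 and 0.68 with Eth and by 0.70, 0.95 and 0.64 with Dex. LATS2 did not pass under either treatment, at -0.01 and 0.15.

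The ratio of YAP1 to WWTR1 CPM brings both coactivator genes together, and is a relative value, since the lengths of the transcripts were not taken into account. In siNS cells it was 0.685, 0.706 and 0.737 in the 3 Eth libraries and 1.13, 1.25 and 1.02 in the 3 Dex libraries. Dex raised it without overlap of the libraries, and it was 0.456 ± 0.00768 and 0.642 ± 0.0195 in siHP1γ cells with Eth and Dex, and 0.515 ± 0.0261 and 0.880 ± 0.0222 in siPRMT5 cells (SD, n = 3). The differences of the ratio with Dex were 0.67, 0.49 and 0.77 on the log2 scale in siNS, siHP1γ and siPRMT5 cells. Against siNS, the ratio was lower under both treatments, with differences of -0.64 and -0.81 after HP1γ depletion and of -0.46 and -0.36 after PRMT5 depletion, with Eth and Dex. The libraries did not overlap in any of the 9 comparisons, and the exact two-sided permutation test gave p = 0.1 in each, which is also the value adjusted over the 9 and the smallest it can give.

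Genes of the pathway outside the set were read from fixed lists. The counts of each list are to be read beside the share of all genes called. For the Dex comparisons this share was 2.71% (siNS), 1.67% (siHP1γ) and 5.44% (siPRMT5). For depletions it was 31.8% (HP1γ, Eth), 24% (HP1γ, Dex), 42.1% (PRMT5, Eth) and 42.4% (PRMT5, Dex). Of the 11 kinases and adaptors around MST and LATS (STK3, STK4, SAV1, MOB1A, MOB1B, the NDR kinases STK38 and STK38L, 3 TAO kinases and MAP4K4), none passed the Dex threshold in any of the 3 kinds of cells. After HP1γ depletion, 6 of 11 passed with Eth (2 higher and 4 lower), where 31.8% of all genes did, and 3 with Dex (1 higher and 2 lower), close to the share of all genes, 24%. MOB1A, the activating subunit of LATS, fell, with a log2 fold change of -0.63 (adjusted p = 4.78e-05) with Eth. After PRMT5 depletion, 6 passed with Eth (3 higher and 3 lower) and 6 with Dex (2 higher and 4 lower). STK38, the kinase NDR1, fell, with log2 fold changes of -0.92 (adjusted p = 4.91e-11) and -1.22 (adjusted p = 3.01e-13), and SAV1, the scaffold of the MST kinases, rose by 0.55 (adjusted p = 3.53e-06) and 0.51 (adjusted p = 1.27e-05). The median log2 fold change of this list was between -0.15 and 0.03 over the 7 comparisons, against 0.00 to 0.01 over all genes.

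Of the 15 upstream scaffolds and cadherins, 14 were tested. With Dex, 1 passed in each kind of cells, the atypical cadherin FAT4, which rose by 1.41 (adjusted p = 1.68e-07) in siNS, 0.61 (adjusted p = 0.00812) in siHP1γ and 0.86 (adjusted p = 2.97e-05) in siPRMT5 cells. HP1γ depletion changed 6 with Eth (3 higher and 3 lower), where 31.8% of all genes changed. With Dex it changed 4, all lower, where 24% of all genes changed (12.3% lower). NF2 (Merlin), which brings LATS to the membrane, fell, with log2 fold changes of -0.54 (adjusted p = 0.000275) and -0.83 (adjusted p = 1.26e-06). PRMT5 depletion changed 8 of 14 with Eth (5 higher and 3 lower) and 7 with Dex (3 higher and 4 lower). The shares of all genes were 42.1% and 42.4%, and the counts were not tested against them. WWC1 (KIBRA), a partner of Merlin, fell, with log2 fold changes of -1.02 (adjusted p = 1.37e-09) and -0.82 (adjusted p = 3.75e-08). Of the 5 genes of YAP turnover and tyrosine phosphorylation, none passed with Dex. CSNK1D, a kinase gene of YAP turnover, fell after HP1γ depletion, with log2 fold changes of -0.41 (adjusted p = 0.000169) and -0.80 (adjusted p = 1.38e-08). It rose after PRMT5 depletion by 0.59 (adjusted p = 5.9e-07) and 0.32 (adjusted p = 0.000987). YES1, the Src-family kinase from which YAP took its name, fell after PRMT5 depletion, with log2 fold changes of -1.55 (adjusted p = 1.35e-11) and -1.39 (adjusted p = 9.26e-11).

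TEAD2, TEAD3, TEAD4, VGLL3 and VGLL4 were the 5 tested genes of the other TEAD factors and of their VGLL cofactors. VGLL3 rose with Dex by 0.80 (adjusted p = 0.000803) in siNS and 1.82 (adjusted p = 4.92e-10) in siPRMT5 cells, and the difference between both responses passed the interaction test at 1.02 (adjusted p = 0.00741). No other gene of the list passed the Dex threshold. PRMT5 depletion raised VGLL4, a competitor of YAP for TEAD. It was measured at 34.7 to 39.4 CPM in siNS Eth and 93.7 to 116 CPM in siPRMT5 Eth, and at 30.9 to 33.4 CPM in siNS Dex and 78.6 to 82.8 CPM in siPRMT5 Dex. The log2 fold changes were 1.47 ± 0.0816 (SE, adjusted p = 2.11e-13) and 1.33 ± 0.0825 (SE, adjusted p = 1.58e-12). In siPRMT5 Dex all 5 passed, VGLL3 and VGLL4 higher and the 3 TEAD genes lower, among them TEAD3 at -0.61 (adjusted p = 3.73e-06) and TEAD4 at -0.53 (adjusted p = 0.000116). In siPRMT5 Eth 3 passed, 2 higher and 1 lower. Of all genes, 42.4% passed in siPRMT5 Dex and 42.1% in siPRMT5 Eth. HP1γ depletion changed 3 with Eth (2 higher and 1 lower) and 2 with Dex (1 higher and 1 lower). The shares of all genes there were 31.8% and 24%. TEAD4 fell, with log2 fold changes of -0.47 (adjusted p = 0.000838) and -0.63 (adjusted p = 3.76e-05).

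Of the 17 other genes of a YAP/TAZ signature, 3 passed with Dex in siNS cells, all higher, namely IGFBP3, a binding protein of insulin-like growth factors (1.33), ARHGEF17 (0.75) and the growth factor TGFB2 (0.68). In siHP1γ cells 2 passed, both higher, IGFBP3 (0.93) and TGFB2 (0.63). In siPRMT5 cells 4 passed, all higher, IGFBP3 (2.25), F3, which encodes tissue factor (1.61), FJX1 (0.86) and RBMS3 (0.65). Of all genes, 2.71% passed in siNS, 1.67% in siHP1γ and 5.44% in siPRMT5 cells (1.65%, 1.01% and 2.69% higher). The median log2 fold change of the list was 0.03, 0.02 and 0.26, against 0.00 over all genes in each. The study chose IGFBP3 for follow-up on these samples, so it is not independent evidence of a direction. F3 was measured at 181 to 203 CPM in siNS Eth, 155 to 196 in siNS Dex, 89.0 to 109 in siPRMT5 Eth and 294 to 314 in siPRMT5 Dex. Its Dex response did not pass in siNS cells, at -0.17 (adjusted p = 0.271), and the difference between both responses passed at 1.78 (adjusted p = 1.42e-09).

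HP1γ depletion changed 13 of these 17 genes with Eth, 4 higher and 9 lower, and 9 with Dex, 2 higher and 7 lower, where 31.8% and 24% of all genes were called. IGFBP3 fell, with log2 fold changes of -0.99 (adjusted p = 1.66e-10) and -1.39 (adjusted p = 2.6e-13). PRMT5 depletion changed 10 with Eth, 3 higher and 7 lower, and 11 with Dex, 5 higher and 6 lower, where 42.1% and 42.4% of all genes were called. AXL, a receptor tyrosine kinase and a known YAP target, was measured at 912 to 1003 CPM in siNS Eth and at 210.2 to 226 CPM in siPRMT5 Eth, and at 782 to 864 and 182 to 195 CPM with Dex. The log2 fold changes were -2.13 ± 0.0637 (SE, adjusted p = 1.4e-18) and -2.13 ± 0.0637 (SE, adjusted p = 2.05e-18), the largest falls of the list in both. F3 fell with Eth, at a log2 fold change of -0.96 (adjusted p = 4.07e-09), and rose with Dex, at 0.82 (adjusted p = 2.87e-08). The medians of the list were -0.20 and -0.16 after HP1γ and -0.07 and -0.12 after PRMT5 depletion.

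**Figure D5:**
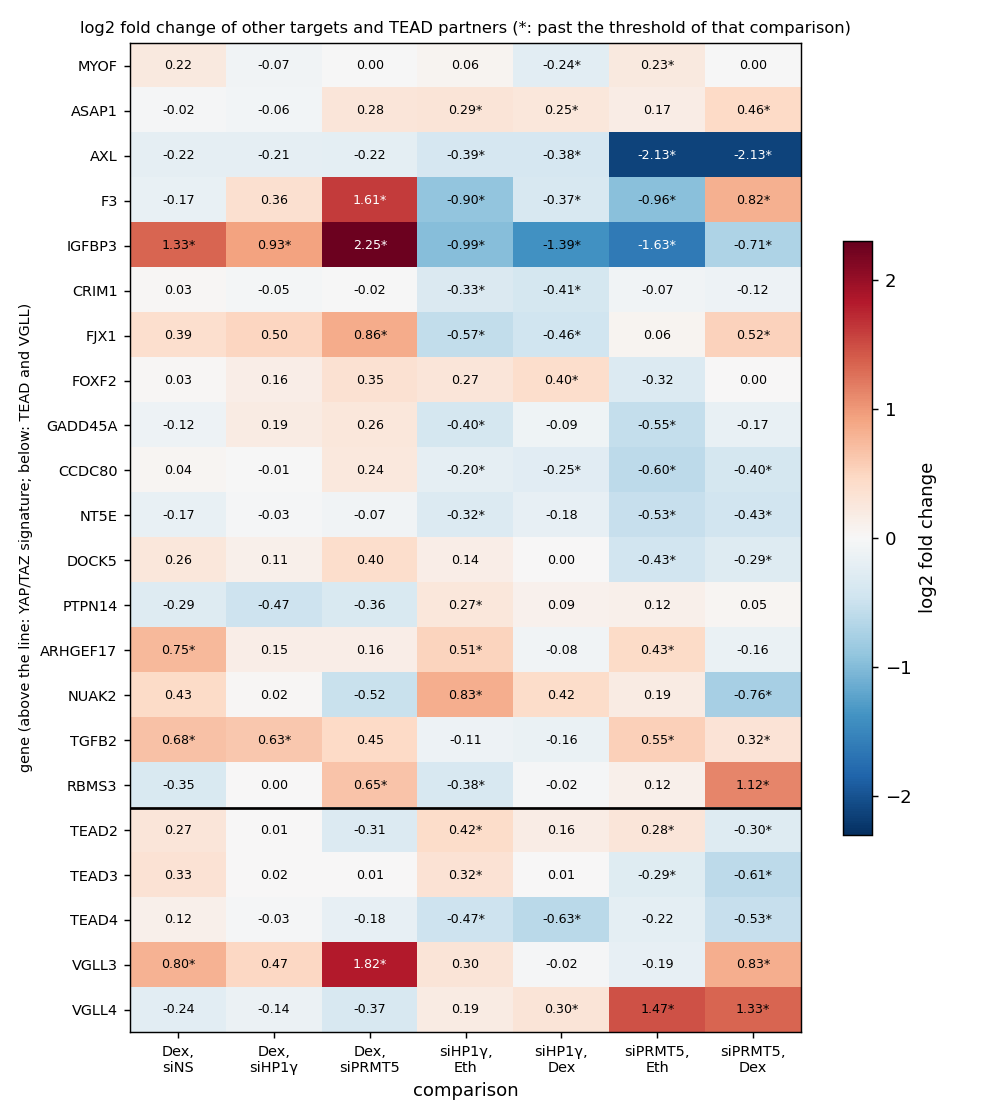
Other YAP/TAZ signature genes (above the line) and other TEAD and VGLL genes (below it) in the 3 Dex comparisons and the 4 depletion comparisons. Each cell gives the log2 fold change as colour and number, and a star marks a value past the threshold of its comparison, adjusted p under 0.01 with a fold of at least 1.5 for Dex and adjusted p under 0.05 for depletions. IGFBP3 is starred in all 7 columns, AXL is at -2.13 after PRMT5 depletion under both treatments, and VGLL4 at 1.47 with Eth and 1.33 with Dex.

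The route by which GCs are reported to reach YAP was read from 7 genes, NR3C1 (the gene of GR), FN1 (fibronectin), PTK2 (focal adhesion kinase), SRC, RHOA, ROCK1 and ROCK2. FN1 was the only one past the Dex threshold, in all 3 kinds of cells. It was measured at 137, 159 and 134 CPM in siNS Eth and at 481, 486 and 469 CPM in siNS Dex, a log2 fold change of 1.74 ± 0.0924 (SE, adjusted p = 1.5e-13). It was measured at 244, 207 and 219 CPM with Eth and at 386, 464 and 384 CPM with Dex in siHP1γ cells, and at 329.6, 384 and 369 CPM with Eth and 549.7, 669.7 and 667 CPM with Dex in siPRMT5 cells. The groups did not overlap in any of the 3 kinds of cells. The log2 fold changes there were smaller, 0.88 and 0.80, and the differences from siNS cells passed the interaction test, at -0.86 (adjusted p = 0.000872) and -0.94 (adjusted p = 8.53e-05). In both depleted cells FN1 was already higher than in siNS with Eth, by 0.64 (adjusted p = 7.45e-06) and 1.33 (adjusted p = 1.35e-11). NR3C1 did not pass with Dex in any of the cells, nor after HP1γ depletion, and was higher by 0.31 (adjusted p = 0.0062) in siPRMT5 Dex. SRC was lower in siPRMT5 cells, at -0.59 (adjusted p = 3.53e-05) with Eth and -0.87 (adjusted p = 1.16e-07) with Dex, and higher in siHP1γ cells with Eth, at 0.48 (adjusted p = 0.00032). PTK2 was lower in all 4 depletion comparisons, with log2 fold changes of -0.34 to -0.23. RHOA was measured at 601 to 648 CPM in siHP1γ Eth and at 690 to 827 CPM in siNS Eth. After HP1γ depletion, 4 of the 7 passed with Eth (2 higher and 2 lower) and 1 with Dex (lower). After PRMT5 depletion, 3 passed with Eth (1 higher and 2 lower) and 4 with Dex (2 higher and 2 lower). The shares of all genes were 31.8%, 24%, 42.1% and 42.4%, in this order.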

How the data were processed

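Total RNA (Trizol) of MDA-MB-231 cells was made into libraries with a Lexogen kit and sequenced on an Illumina NextSeq. The authors aligned reads to hg38 with Bowtie2 (2.4.2), counted them per gene with htseq-count (HTSeq 0.9.1) and deposited raw counts, 1 table per library. The type of kit, the strand setting and the annotation are not given in the sources used here. A further table with the authors' own DESeq2 (2.11.40.7) fold changes and p-values was not used.

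Counts were taken as deposited. Genes were kept with filterByExpr and library totals scaled with TMM (factors 0.969 to 1.04), and CPM were computed with these totals. edgeR (4.0.16, R 4.3.3) was fitted to the 18 libraries with its quasi-likelihood test, a separate mean for every condition, which left 12 residual degrees of freedom. Benjamini-Hochberg adjustment ran over 15298 genes. Dex comparisons were called at an adjusted p under 0.01 with a fold of at least 1.5, depletions and interactions at an adjusted p under 0.05. The fit was tested on simulated data. DESeq2 (1.42.0), other scalings and filters, the replicate number as a block and the loss of each library were the alternatives. Gene loci are from GENCODE 44 on hg38 and promoter sequences from RefSeq.

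All 10 members are described. From other lists, at most 4 called genes with the largest change per comparison were named, and for CCN2, CCN1, ANKRD1 and YAP1 the 3 genes of at least 5 CPM whose 6 condition means were closest. The members and lists were chosen with earlier results of these data known, and the comparison of siPRMT5 with siHP1γ cells was added after the data were seen. A gene that this rule names is not reported here.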

Additional observations from a re-analysis of the deposited data

Results flagged for a closer look

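Among the members, the Dex response of CCN2 differed between siPRMT5 and siNS cells, with a difference of the log2 fold changes of 0.42 (adjusted p = 0.00685). CCN2 was higher with Dex in both kinds of cells, by 0.66 in siPRMT5 and 0.23 in siNS cells.

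Among the other pathway genes, the Dex response after PRMT5 depletion was higher than in siNS cells for F3 at 1.78 (adjusted p = 1.42e-09), VGLL3 at 1.02 (adjusted p = 0.00741), RBMS3 at 1.003 (adjusted p = 0.00223), IGFBP3 at 0.92 (adjusted p = 3.34e-06) and FJX1 at 0.47 (adjusted p = 0.021). It was lower than in siNS cells for FN1 at -0.94 (adjusted p = 8.53e-05), ARHGEF17 at -0.59 (adjusted p = 0.0131), TEAD2 at -0.58 (adjusted p = 0.0226) and TAOK2 at -0.47 (adjusted p = 0.0179). After HP1γ depletion it was lower than in siNS cells for FN1 at -0.86 (adjusted p = 0.000872) and ARHGEF17 at -0.59 (adjusted p = 0.0464). RBMS3 had a Dex log2 fold change of 0.65 in siPRMT5 and -0.35 in siNS cells, and ARHGEF17 one of 0.75 in siNS, 0.15 in siHP1γ and 0.16 in siPRMT5 cells.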

How the results depend on the processing

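Of 2750 values of the members under 25 alternatives, 18 of which each left out 1 library, 2720 stayed on their side of the threshold, 26 lost and 4 gained a call. The sign turned in 83 values, which belong to 18 results that had not passed and lay within 0.09 of 0 on the log2 scale, and in 0 values of results that had passed. With a fold of at least 2 required, 1 member passed in the Dex comparison of siPRMT5 cells in place of 2. Leaving out 1 library gave 1 member called with Dex in siNS and in siHP1γ cells, 2 to 3 in siPRMT5 cells, 7 to 9 after HP1γ depletion with Eth and 6 to 8 with Dex, and 8 and 9 after PRMT5 depletion with Eth and Dex. It gave 7 to 8 and 8 to 9 between siPRMT5 and siHP1γ cells, with 0 and 1 for the interactions with HP1γ and PRMT5 depletion. With library size alone as the scaling, the median of all genes after HP1γ depletion was at 0.07 with Eth and 0.09 with Dex, and 63.8% and 69.2% of calls were higher, against 52.1% and 48.7%. LATS1 then lost its call with Eth (0.0726) and with Dex (0.0908), AJUBA with Eth (0.052) and WWTR1 between siPRMT5 and siHP1γ cells with Dex (0.0552), all adjusted p-values. Without a filter on low counts LATS2 lost its call after HP1γ depletion with Dex (adjusted p = 0.0773). Between siPRMT5 and siHP1γ cells, WWTR1 with Dex lost its call without siHP1γ Dex replicate 2 and AJUBA with Eth without siHP1γ Eth replicate 1 or siPRMT5 Eth replicate 3, whereas AJUBA and LATS2 with Dex gained one without siHP1γ Dex replicate 2 and siPRMT5 Dex replicate 1.

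The replicate numbers did not pair the samples: deviations of libraries with the same number had a median correlation of -0.00710 over 45 pairs (13 above 0.1), against -0.00431 over 90 pairs with different numbers. Single pairs ran from -0.619 to 0.602. The libraries siNS Eth 1, siHP1γ Dex 1, siPRMT5 Eth 3 and siPRMT5 Dex 2 correlated with each other at 0.396 to 0.602. Each held the highest TEAD1 and LATS1 levels of its condition. The source of these shared deviations was not tested. With the replicate number as a block, the same counts of members were called, 1, 1 and 2 with Dex in siNS, siHP1γ and siPRMT5 cells, 9 and 8 after HP1γ and 8 and 9 after PRMT5 depletion with Eth and Dex, and 0 and 1 for the interactions. Over all genes, the interaction with HP1γ depletion had 61 calls, 94 with the block, 304 by DESeq2, 374 without a filter and 20 to 186 without 1 library, and that with PRMT5 depletion had 582 calls and 319 to 897 without 1 library. A fold of at least 2 left 194, 106 and 373 genes with Dex in place of 414, 255 and 832.

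Depth was 8682992 to 12472381 counts per library, and the lowest count of a member in a library was 539. Protein levels, phosphorylation and the location of YAP were not measured here.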

Other observations

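The phosphatase complex STRIPAK, which removes activating phosphates from MST kinases, was read from 7 genes. None passed the Dex threshold in any of the cells (edgeR's quasi-likelihood test). PRMT5 depletion raised STRN, the gene of striatin, with log2 fold changes of 0.46 (adjusted p = 0.000722) with Eth and 0.46 (adjusted p = 0.000608) with Dex, and lowered that of its relative STRN4, with -0.46 (adjusted p = 8.48e-05) and -0.63 (adjusted p = 1.01e-06). HP1γ depletion lowered SIKE1, with -0.65 (adjusted p = 1.29e-06) and -0.46 (adjusted p = 0.000131). With Eth and Dex, 4 and 2 of the 7 genes passed after HP1γ depletion, where 31.8% and 24% of all genes did, and 3 and 5 after PRMT5 depletion, where 42.1% and 42.4% did. The counts of 2 and 3 are close to these shares.

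Of 10 genes of the actin cytoskeleton driven by SRF, a factor that shares targets with YAP, 8 were tested. VCL, the gene of the focal adhesion protein vinculin, was the only one past the Dex threshold, in siPRMT5 cells at 0.82 (adjusted p = 9.8e-11). FHL2, a LIM-domain coregulator, fell after PRMT5 depletion, with -0.75 (adjusted p = 1.3e-08) with Eth and -0.42 (adjusted p = 8.56e-05) with Dex, and so did SRF itself, with -0.32 (adjusted p = 0.00876) and -0.53 (adjusted p = 6.67e-05). With Eth and Dex, 1 and 2 of the 8 passed after HP1γ depletion and 3 and 5 after PRMT5 depletion. All but the last count are near or below the shares of all genes just given. The median log2 fold change of the list was between -0.28 and 0.10 over the 7 comparisons, against 0.00 to 0.01 over all genes.

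The genes with the most similar pattern over the 6 condition means were listed, by the root mean square difference of centred log2 CPM. For ANKRD1 they were TRNP1 (0.233) and CCBE1 (0.321), among 314 genes with a comparable range. For CCN2 they were MOSMO (0.0794), FLRT2 (0.119) and SLC38A1 (0.120) of 1816, and for CCN1 SLC30A6 (0.0690), JPH1 (0.0700) and HSD17B10 (0.0717) of 3903. For YAP1 they were SNHG15 (0.0656), SLC39A10 (0.0667) and AC021078.1 (0.0715) of 6745. Members of the set were left out of this search. Within the set, the closest pairs were CCN1 with TEAD1 (0.117), AMOTL2 with YAP1 (0.124), AMOTL2 with LATS1 (0.151) and CCN1 with CCN2 (0.153). With only 6 condition means, many genes come close, and these distances are a description.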
